A study of Mus musculus with 8 samples.

Results

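Ajap1 and Camta1 lie on distal mouse chromosome 4 with other genes between them, and 12 regions of the deposited H3K27me3 table lie in their gene bodies or within 50 kb of them, of 13585 regions in all. A single region overlapped Ajap1 and 11 regions belonged to Camta1. A further 25 regions of the same chromosome, in a window of 5 Mb from 150000000 that holds both genes, were set beside them. The pair was selected on measured values, the difference in H3K27me3 between genotypes, so the differences of these 12 regions are described here and not tested.

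H3K27me3 was measured by chromatin immunoprecipitation and sequencing (ChIP-seq) in female neural stem cells (NSCs) on the C57BL/6J background, derived from the cortex of E14.5 embryos and grown for fewer than 10 passages. WT cells were Smchd1GFP+/+, and MommeD43 cells were homozygous for the MommeD43 variant of Smchd1 on the same GFP-tagged gene (Smchd1GFPMommeD43/MommeD43). SMCHD1 in both genotypes therefore carried a GFP tag, and the MommeD43 allele of these cells was made with CRISPR. Each genotype had 3 ChIP libraries from separate cell lines and 1 whole cell extract library.

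H3K27me3 is the trimethylated form of lysine 27 of histone H3. It is written by Polycomb repressive complex 2, covers developmental genes that a cell keeps silent, and is found most often at CG-rich gene starts. SMCHD1 is a non-canonical SMC protein with an ATPase domain needed to silence genes on the inactive X and in several autosomal gene clusters, and MommeD43 is a missense variant in its extended ATPase domain. Ajap1 encodes adherens junction associated protein 1, a transmembrane protein that binds junction components. Camta1 encodes calmodulin binding transcription activator 1, a DNA-binding factor that is highly expressed in brain. Both genes are read from the minus strand, so their starts lie at the higher coordinate. All coordinates are GRCm38.

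Because Polycomb marking is tied to CG-rich starts, the 250 bases before the RefSeq start of each gene are shown, 5′ to 3′ on the gene's own strand, with every CG pair in capitals. The sequences are from RefSeq on GRCm38.p6, at chr4:153482831-153483080 for Ajap1 and chr4:151861769-151862018 for Camta1, both on the minus strand.
Ajap1: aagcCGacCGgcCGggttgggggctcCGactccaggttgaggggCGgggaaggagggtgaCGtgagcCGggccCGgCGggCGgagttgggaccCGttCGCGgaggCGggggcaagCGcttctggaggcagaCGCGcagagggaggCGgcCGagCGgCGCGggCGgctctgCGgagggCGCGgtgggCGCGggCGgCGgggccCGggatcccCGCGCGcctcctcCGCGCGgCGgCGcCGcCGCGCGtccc
Camta1: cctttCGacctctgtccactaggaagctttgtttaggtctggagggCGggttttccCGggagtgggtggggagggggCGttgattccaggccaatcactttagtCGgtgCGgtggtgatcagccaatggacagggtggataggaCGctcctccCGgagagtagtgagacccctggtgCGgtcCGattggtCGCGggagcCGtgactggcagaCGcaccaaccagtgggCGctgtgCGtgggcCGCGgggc

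The Ajap1 stretch held 43 CG pairs and was 81.2% G or C. Of 32851 RefSeq promoters of the same length, 0.712% held as many CG pairs, and the median was 6. The Camta1 stretch held 18 CG pairs and was 63.6% G or C, and 21.7% of promoters held as many. All 250 bases of the Ajap1 stretch lay in an H3K27me3 region, but only 18 bases of the Camta1 stretch did. Of the 57 protein-coding genes that started in the 5 Mb window, 47 were found in the RefSeq table, and Ajap1 had the most CG pairs among them. The 26 matched genes that started in a region ranged from 0 to 43 CG pairs and the 21 that started outside regions from 2 to 33. The median was 16 in the latter and lower in the former, so the starts in regions were not the richer in CG pairs over this stretch.

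**Figure D1:**
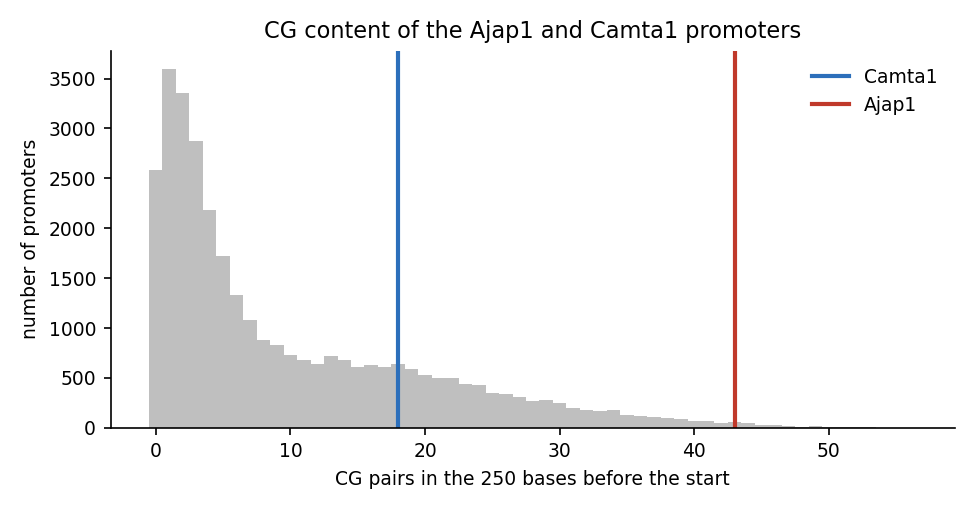
Number of RefSeq promoters (vertical axis) by the number of CG pairs in the 250 bases before the start (horizontal axis), with lines at Ajap1 and Camta1. Ajap1 lies in the far upper tail with 43 CG pairs, and Camta1 with 18 lies above the median of 6.

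Each value in the table is a log2 normalized count, the authors' mean over the 3 ChIP libraries of a genotype, so no value has a replicate SD and no difference has a replicate check. A difference is MommeD43 minus WT, and 1 on this scale is a factor of 2. Values scaled to library size are relative, so a higher value is not by itself a larger amount of the mark. The paper describes ChIP-seq as poorly suited to comparing levels of a histone mark. By immunofluorescence it reported modestly lower H3K27me3 in MommeD43 NSCs, on the inactive X and over the nucleus. The number of reads behind a value was recovered from the whole-number steps of the low values, as described with the processing. One count of the raw data stood for 3.27 normalized counts in the WT column and for 2.63 in the MommeD43 column, and the median region held 100.1 and 130 reads per library. Each difference is given with the smallest error that these reads allow (SE, Poisson counting only), which leaves out all spread between cell lines. Across all 13585 regions the median difference was 0.11. It was 0.075 on the autosomes, where 267 of 11707 regions were higher by at least 1 and 343 lower by at least 1.

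Among the 12 regions of Ajap1 and Camta1, 12 had a higher value in MommeD43, though 2 of them changed direction under other processing. Of the 12, 7 were higher by at least 1, beside 6.09% of all regions and 267 of 11707 autosomal regions. None was lower by at least 1, beside 3.03% of all regions and 343 of 11707 autosomal regions. Since the genes were chosen for this difference, nothing is read from those shares. The Ajap1 region differed by 3.87 and the Camta1 regions had a median difference of 1.39, ranging from 0.14 to 2.01. The 25 other regions of the window had a median of 0.66.

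The Ajap1 region, 4:153475551-153487450, was 11900 bp long and held the start of the gene. It was 5.59 in WT and 9.46 in MommeD43, so it was low in WT and above the median region in MommeD43. The difference of 3.87 (SE 0.22) had a 95% counting interval of 3.43 to 4.31 and corresponds to 14.6-fold more normalized counts. It was the highest difference in the table, rank 1 of 13585. The recovered reads were 14.8 per WT library and 268 per MommeD43 library (geometric means). The WT value fits a product of 3220 for the counts of the 3 libraries, which can be split into 3 whole counts in 28 ways. The smallest total of any split is 47 reads, and in every split at least 1 library held 23 or more. Uneven splits have higher totals, so the WT total is known only from below, as is the MommeD43 total of at least 803 reads.

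Per kilobase, the Ajap1 region carried 1.24 reads per library in WT and 22.5 in MommeD43. Reads per kilobase are not scaled for depth, and their median over all regions was 10.3 in WT and 13.2 in MommeD43. In WT the density was lower in only 0.0256% of autosomal regions, whereas in MommeD43 it was lower in 82.2% of them. Regions were called in either genotype, so a region as low as this one in WT entered the table through MommeD43 and had to be higher there. Including Ajap1, 30 regions were as low in WT, of which 4 were autosomal, and all 30 differed by at least 1. Their differences ranged from 1.09 to 3.87. The autosomal region among them with the next highest MommeD43 density, 5:119744751-119752450, reached 10.7 reads per kilobase and a difference of 2.81. With WT this low, the order by MommeD43 density follows the difference that chose Ajap1, and nothing further is read from it.

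The annotated Ajap1 gene spans 4:153373221-153482811 (109591 bp). The region covered 7261 bp of its 5′ end (6.63% of the gene), with 683 bp of annotated exon, and ran on upstream of the start. Both annotated transcripts, the protein-coding one and a nonsense-mediated decay transcript, start in it. The remaining gene body held no region. The neighbouring regions were far away. The nearest one beyond the 3′ end of Ajap1, 4:152429901-152443600 in the potassium channel subunit gene Kcnab2, lay 1031950 bp from it and went from 8.67 to 9.22, a difference of 0.55. The nearest one upstream, 4:153941451-153959500 at the start of A430005L14Rik, lay 454000 bp away and went from 9.34 to 9.98, a difference of 0.65. The median gap between neighbouring regions of the table was 30100 bp, and 96.7% and 91.9% of gaps were shorter than these. Ajap1 was thus an isolated site of marking, and its difference was several times that of either neighbour.

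**Figure D2:**
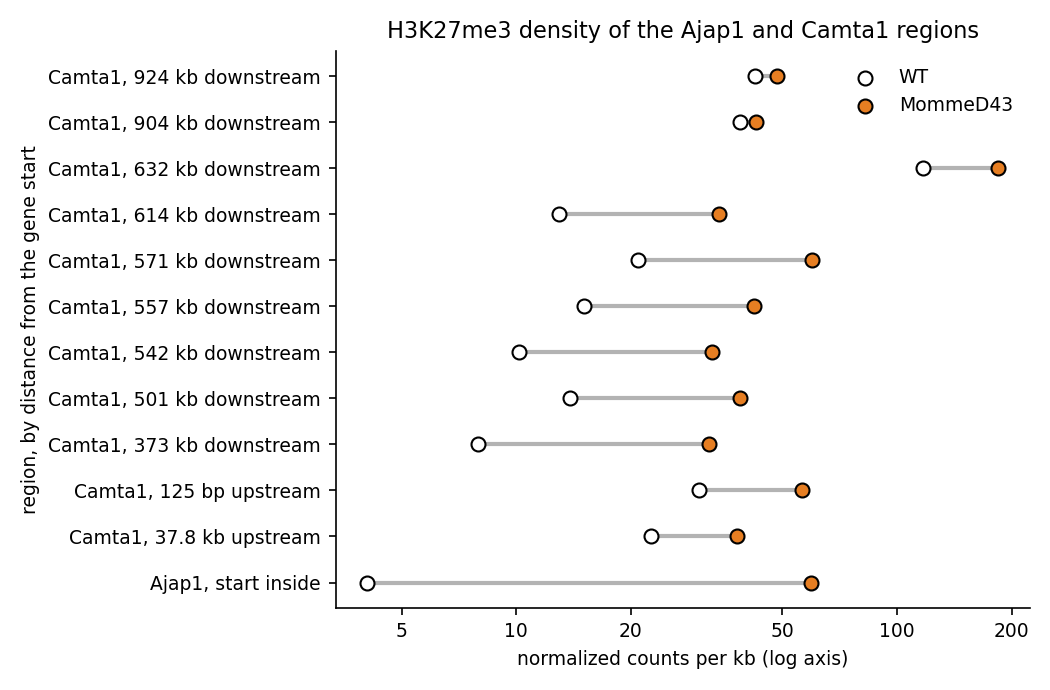
Normalized counts per kilobase (horizontal log axis) in WT (white) and MommeD43 (orange) for the 12 regions, in order along the chromosome, each named by the distance of its nearer edge from the gene start. Each point is 1 pooled value, and the Ajap1 bar is the longest, from 4.06 to 59.3, while the Camta1 region of highest density went from 116.7 to 184.5.

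The annotated Camta1 gene is much longer, at 4:150917322-151861876 (944555 bp), and regions covered 25.3% of it. Of its 13 transcripts, 8 start within a cluster between 151861650 and 151861876, and that cluster lay in no region. The nearest region upstream began 125 bp from the gene's outermost start. Another 4 transcripts, Camta1-203, Camta1-204, Camta1-205 and Camta1-208, are short and start between 151108303 and 151139584. These 4 starts all lay in 1 broad region, and the remaining transcript, protein-coding Camta1-207, starts at 151079793 in no region. The 5′ part of the gene, just downstream of the main start, was the longest stretch without a region, at 373150 bp. The Camta1 regions therefore lay inside the gene downstream of that stretch and upstream of the main start, not on the start itself.

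The broad region, 4:151100451-151230100, was 129650 bp long and had the highest values of the 12. It went from 13.89 in WT to 14.55 in MommeD43, a difference of 0.66 (SE 0.015). Not scaled for depth, its reads per library went from 4631 to 9083 and its density from 35.7 to 70.1 reads per kilobase. In normalized counts MommeD43 was 1.58-fold WT. By the mean of both values it ranked 160 of 13585. This was the best measured of the Camta1 regions and was strongly marked in both genotypes. With trends of GC content and read density taken away its difference was 0.12, and the median of the other regions of the window was 0.28.

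Upstream of it, toward the main start, 6 regions lay inside the gene body and were weakly marked in WT. The first, 4:151240551-151248250, went from 6.64 to 8.03, a difference of 1.39 (SE 0.17). The second, 4:151259451-151290400, went from 9.34 to 10.85, a difference of 1.51 (SE 0.067), and was the only one of the 6 to overlap an annotated exon, by 72 bp. The third, 4:151294851-151305250, went from 7.29 to 8.78, a difference of 1.49 (SE 0.14). These 3 intervals overlap one another, so their differences cannot be ordered by the counting error.

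The next, 4:151313451-151320100, went from 6.08 to 7.76, a difference of 1.68 (SE 0.20). The region 4:151351401-151361050 went from 7.06 to 8.54, a difference of 1.48 (SE 0.15). The last, 4:151481001-151488850, went from 5.96 to 7.97, a difference of 2.01 (SE 0.21), the highest of the Camta1 regions and rank 35 of 13585. It also had the lowest WT value of the 11 and only 19 WT reads per library, so its counting interval was wide, from 1.60 to 2.42.

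The 6 intragenic regions thus had differences of 1.39 to 2.01, with a median of 1.499. Their WT densities ranged from 7.92 to 20.9 normalized counts per kilobase and their MommeD43 densities from 31.98 to 59.7. WT density was lower in 0.256% to 7.69% of autosomal regions, and MommeD43 density in 35.1% to 82.4%. These values are those that chose the gene, and regions this low in WT could enter the table through MommeD43, as at Ajap1. On the linear scale the order was different. The broad region was higher in MommeD43 by 67.8 normalized counts per kilobase, the 6 intragenic regions by 21.05 to 38.8, and the Ajap1 region by 55.2. The broad region thus had the highest linear gain of the 12 and one of the lower log2 differences. Every peak was widened by the same length, which makes up a larger share of a short region. Densities and linear gains of regions of unlike length are therefore not strictly comparable.

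Beyond the main start, 2 regions lay within 50 kb upstream. The nearer one, 4:151862001-151889200, went from 9.68 to 10.58, a difference of 0.90 (SE 0.063). The farther one, 4:151899651-151910650, went from 7.96 to 8.71, a difference of 0.75 (SE 0.12). At the other end of the gene, 2 regions overlapped only the longest transcript, Camta1-211, and also the T cell costimulatory receptor gene Tnfrsf9. The region 4:150915801-150938350 went from 9.90 to 10.09, a difference of 0.19 (SE 0.064). The region 4:150943401-150958150 went from 9.16 to 9.30, a difference of 0.14 (SE 0.083), whose interval of -0.026 to 0.30 includes 0. These 2 regions had the lowest differences of the 12. With values scaled to the total of the regions, their differences were -0.053 and -0.11. Reads in them cannot be assigned to Camta1 rather than to Tnfrsf9.

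Just inside the 50 kb limit upstream of Camta1 the difference was 0.75, and just outside, at 4:151925151-151931950, it was 0.58. On the 3′ side no region lay near the limit. The last one inside overlapped the end of the gene, with a difference of 0.19, and the first one outside, at 4:150648801-150655900, was well beyond the limit, with a difference of 0.032.

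Around the 12 regions, the level of the difference changed along the chromosome. The 5 regions before Camta1 had a median difference of 0.24, the 6 between Camta1 and Ajap1 a median of 0.62, and the 14 after Ajap1 a median of 0.79. All 25 had a higher value in MommeD43, ranging from 0.032 to 1.31, and 3 were higher by at least 1. The 781 regions of chromosome 4 outside the window had a median of 0.16, and 511 of them had a higher value in MommeD43. The lowest value of the window, 0.032 at 4:150648801-150655900 (SE 0.12), has a counting interval that includes 0. Of the 5 regions before Camta1, 2 stayed above 0 once a trend with GC content was taken away, against 6 of 6 between the genes and 13 of 14 after Ajap1. Among the 241 autosomal windows of 5 Mb with at least 20 regions, this one had the highest median difference, 0.75 over 37 regions. By the number of regions higher by at least 1 it ranked 5. Those ranks include the 12 regions chosen for their differences.

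**Figure D3:**
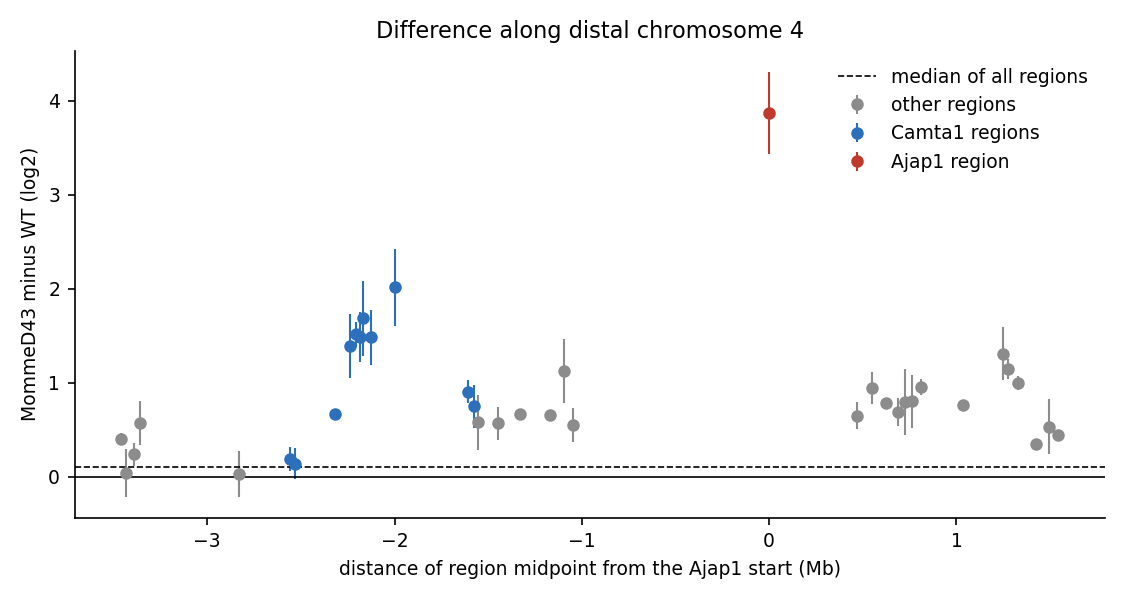
MommeD43 minus WT value (log2, vertical axis) of the 37 regions of the 5 Mb window against the distance of the region's midpoint from the Ajap1 start in Mb (horizontal axis), with bars for the 95% counting interval and a dashed line at the median of all regions. Ajap1 stands alone at 3.87, the intragenic Camta1 regions form a group from 1.39 to 2.01, and the other regions range from 0.032 to 1.31.

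In the 25 other regions, 34 protein-coding genes started, in 16 of the regions. The highest differences at gene starts were 0.996 at Ttc34 (11.01 to 12.01), 0.96 at the guanine nucleotide exchange factor gene Arhgef16 (10.73 to 11.69) and 0.94 at Smim1 (8.69 to 9.64). The lowest were 0.032 at the sugar transporter gene Slc45a1 and 0.24 at Gpr157. They were followed by 0.35 in the region holding the starts of Mmel1, Fam213b, Tnfrsf14 and the Notch target gene Hes5. None of these starts reached a difference of 1.

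The broadest domain of the window, 406550 bp with the starts of Prdm16, B230104I21Rik and Actrt2, went from 15.36 to 16.12, a difference of 0.76. Prdm16 encodes a zinc finger factor that acts in brown fat and in neural stem cells. The domain with Plekhg5, Tnfrsf25, Espn, Hes2 and Acot7 went from 14.42 to 15.08. The domain with Gpr153, Hes3, Icmt, Rnf207, Rpl22 and Chd5 went from 13.86 to 14.52. Both differed by 0.66, as the broad Camta1 region did, so the 4 domains of highest mean value in the window had differences of 0.66 to 0.76.

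The regions most like Ajap1 were sought by their levels, the same values that chose it, so the distances are a description. Among the 4571 regions that held a protein-coding start and at least 50 reads in either genotype, the 5 nearest to Ajap1 by Euclidean distance of the pair of log2 values per kilobase had differences of 1.90 to 2.69. The nearest was the Dio3 region on chromosome 12, at a distance of 0.83, which went from 6.24 to 8.93. Dio3 encodes the deiodinase that inactivates thyroid hormone and is an imprinted gene. The next were the region of the cytoskeletal adaptor gene Epb41l3 (difference 2.11) and that of the synaptic adhesion gene Lrfn2 (2.05). On the X chromosome they were the region of Pdha1 (1.95) and that of Ctps2 and S100g (1.90). Likeness here is of 2 pooled values only. No region held the Camta1 start, so no likeness was computed for it.

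**Figure D4:**
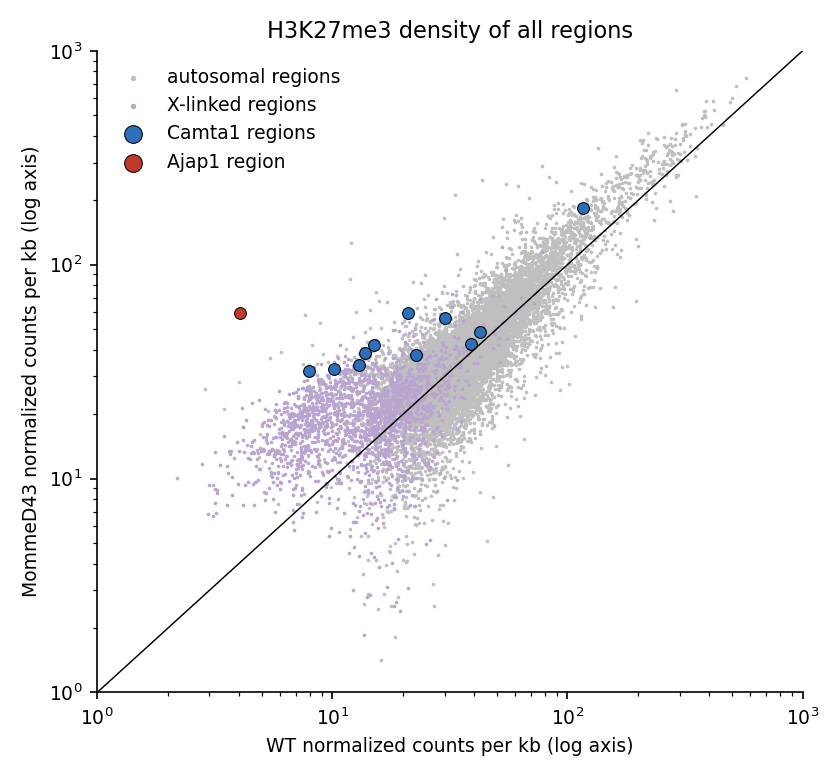
Normalized counts per kilobase in MommeD43 (vertical log axis) against WT (horizontal log axis), 1 point per region, with autosomal regions in grey, X-linked regions in violet, Camta1 in blue, Ajap1 in red and a line where both are equal; 1 region falls outside the axes. Ajap1 lies at 4.06 and 59.3, left of all but a few autosomal points, and the Camta1 regions with 7.92 to 20.9 in WT lie along the upper edge of the cloud.

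The GC content of a region moved with the difference across the table, so its values are given beside the members. The running median of the difference over GC content was lowest in the most AT-rich autosomal regions and highest in the most GC-rich ones. The Ajap1 region was 55.8% G or C, above 99.4% of autosomal regions, and held 30.8 CG pairs per kilobase against a median of 11.5. With autosomal regions split into 10 equal groups by GC content, the 1171 in the group of Ajap1 had a median difference of 0.39, with quartiles of 0.21 and 0.60. With the GC trend taken away, Ajap1 was still the highest region of the table, at 3.41. This reuses the value that chose Ajap1. The trend is held at its end value for regions as GC-rich as this one. The Camta1 regions were 46.7% to 51.9% G or C. Without the trend the 6 intragenic ones lay between 1.05 and 1.87, the broad region at 0.32 and the 2 upstream ones at 0.74 and 0.53. The 2 at the far end lay at 0.10 and -0.080, so the direction of the latter did not hold. The other 25 regions had a median of 0.30 without the trend and 21 of them stayed above 0.

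**Figure D5:**
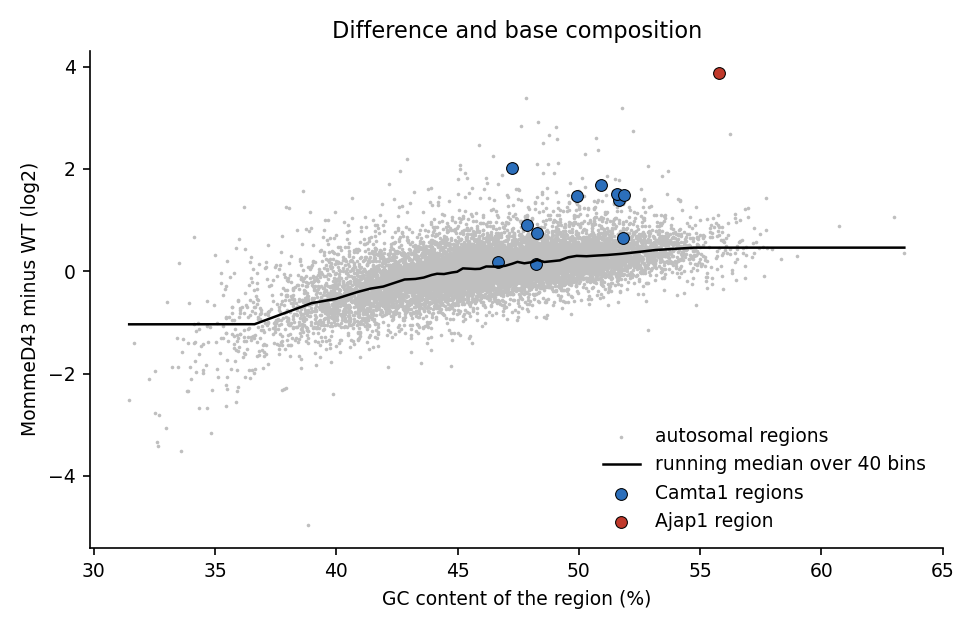
MommeD43 minus WT value (log2, vertical axis) of autosomal regions against GC content in percent (horizontal axis), with the running median over 40 bins as a line. Ajap1 at 55.8% and 3.87 lies far above the line, and the intragenic Camta1 regions lie above it by 1.05 to 1.87.

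Genes that act with the proteins of Ajap1 and Camta1 were examined as lists. Of 30 cadherin, catenin, nectin and related adherens junction genes, 17 had a region. Their 25 regions had a median difference of 0.28, against 0.11 over all regions, and 17 had a higher value in MommeD43, as 8175 of all 13585 regions did. A single one was higher by at least 1, beside 6.09% of all regions and 267 of 11707 autosomal regions. It was the region at the start of Cdh8, a neuronal type II cadherin, which went from 7.75 to 9.71, a difference of 1.97 (SE 0.11). None was lower by at least 1, beside 3.03% of all regions and 343 of 11707 autosomal regions. The epithelial cadherin gene Cdh1 went from 11.41 to 11.86 at its start, and Cdh3, the placental cadherin gene, from 10.90 to 11.41. The start of Ctnna2, the neuronal alpha-catenin, went from 7.29 to 6.68. With the GC trend taken away, the median of the list was 0.049.

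Of 16 genes, made up of Camta2, the calmodulin genes and genes of calmodulin-dependent kinases, the phosphatase calcineurin and calmodulin-binding peptides such as Pcp4, 7 had a region, and Camta2 had none. Their 8 regions had a median difference of -0.11, and 3 had a higher value in MommeD43, beside 8175 of all 13585 regions. None of the 8 differed by 1 or more in either direction. Over all regions 6.09% were higher and 3.03% lower by that much, and on the autosomes 267 and 343 of 11707 were. No member past 1 among 8 thus says nothing about the list. The start of the calcineurin subunit gene Ppp3cc went from 7.04 to 7.92 and that of Camk2a, the alpha subunit of the neuronal calmodulin-dependent kinase, from 14.56 to 14.70.

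The labelled cell type was checked in the same table. Of 10 neural stem cell genes, Sox2, Vim, Fabp7 and Slc1a3 had no region, and 6 had a region at their start, called in either genotype: Nes, Pax6, Sox1, Msi1, Hes1 and Gfap. At these 6 starts the density was 10.2 to 24.1 reads per kilobase in WT and 20.5 to 37.8 in MommeD43, with differences from -0.084 to 1.18 and a median of 0.31. Of 8 genes of other lineages, 7 had a region and only Gata1 had none, with differences from 0.14 at Hnf4a to 1.39 at the mesodermal gene T. The 6 of them with a region at the start had 22.7 (Myod1) to 67.0 (Cdx2 and Pdx1, which share a region) reads per kilobase in WT and 37.5 to 137.8 in MommeD43. The marked neural stem cell genes thus had lower densities than most of the other-lineage genes, and the ranges overlapped at Gfap and Myod1 in both genotypes. Whether the 6 genes were expressed in these cultures was not tested. The pooled values do not separate a change in every cell from a change in the share of cells that carry the mark.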

How the data were processed

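The study placed 8 samples in 4 groups: 3 H3K27me3 ChIP libraries per genotype and 1 whole cell extract library per genotype. The authors trimmed the reads with Trim Galore 0.4.4, aligned them with Bowtie2 2.3.4.1 to GRCm38.p6, extended them by 150 bp in SeqMonk, called peaks per genotype on merged replicates, widened and joined them. The deposited values are log2 read counts per region scaled to library size, 1 pooled column per genotype, neither divided by length nor corrected for whole cell extract. The authors' pooling leaves no replicate values, so the replicate test planned for counts could not be run and no p-value is given. Single libraries and whole cell extract were not analysed here. The labels name micrococcal nuclease digestion and the methods shearing.

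Read depth came from the values. The antilog of 3 times a log2 value is a product of 3 counts up to a constant, and 1138 of 1139 WT and 681 of 684 MommeD43 products under 30000 were within 0.1 of a whole number. Counting errors assume Poisson reads. The libraries carry no molecular identifiers, and 95% intervals cover counting error only.

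Genes were from GENCODE mouse release 21 and promoters from RefSeq. GC trends were running medians over 40 bins of autosomal regions, tested on simulated data. Regions were counted as higher or lower at a log2 difference of 1. Genes of the window were named for the 3 highest and 3 lowest differences and 3 highest means at starts, and likeness used the 5 nearest regions. The members and lists were chosen with earlier results of these data known. A further gene fixed for the neural stem cell list is not reported here. Alternatives were other scalings, trend removal, pseudocounts of 1 and 10, a minimum of 50 reads, other flanks and RefSeq gene bodies, the last added after seeing the data. Python 3.11.15, numpy 2.4.6, pandas 2.3.3 and matplotlib 3.10.9 were used.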

Additional observations from a re-analysis of the deposited data

How the results depend on the processing

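The Ajap1 difference of 3.87 ranged from 3.41 to 3.87 over the alternatives run, and 7 of the regions of both genes were higher by at least 1 and 0 were lower by at least 1 under each of them. Removing the GC trend gave 3.41 for Ajap1, 1.05 for the Camta1 median and 0.30 for the median of the other 25 regions. Removing GC and density trends gave 1.05 for the Camta1 median and 0.28 for the others. Scaling to the total of the regions, which shifts every difference by -0.24, gave 1.15 for the Camta1 median, 0.42 for the others and -0.13 for the median of all regions, which changed sign. Removing the trend with abundance gave 0.48 for the others, and taking the whole of chromosome 4 gave 0.18. A flank of 100 kb gave 12 Camta1 regions with a median of 1.15, since a region of lower difference was added. Over the single Camta1 regions, 53 of 77 values under alternatives moved by less than their counting interval, 20 moved by more and 4 changed sign. The sign changes were in the 2 regions at the Tnfrsf9 end. The one starting at 150915801 was -0.053 under scaling to the total. The one starting at 150943401 was -0.11 under that scaling, -0.080 without the GC trend and -0.035 without GC and density trends. No paired analysis was possible because each genotype is 1 pooled column, and leaving out each replicate in turn was not run for the same reason. The Ajap1 difference rests on 14.8 WT reads per library, and the spread between cell lines is not known from these columns.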

Other observations

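The 5 Mb window held an unbroken run of regions of raised difference, noticed after the values were seen. From 4:151100451 to 154840300 (3.74 Mb), 27 consecutive regions each had a difference of at least 0.5, with a median of 0.90. They began at the broad Camta1 region and ended at Ttc34, and 10 of the 12 regions of Ajap1 and Camta1 lay in the run. The flanking regions had differences of 0.14 and 0.35. The run was the longest on any autosome, followed by runs of 21 regions on chromosome 5 and 19 on chromosome 4, but 10 of its 27 regions are among those chosen for their differences, which bears on its length. A threshold of 0.4 gave the same 27 regions. At 0.6 the run was broken, and its longest piece held 12 regions starting with Ajap1, with 6 autosomal runs that long or longer. All 27 stayed above 0 with the GC trend removed, with a median of 0.53.

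By the median without the GC trend, the 5 Mb window of Ajap1 and Camta1 ranked 3 of 241.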
